A study of Bos taurus with 12 samples.

Results

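In the highly methylated DNA of beef muscle, 893 of 16879 methylated regions on chromosomes 1 to 29 were called in both libraries of one kind of beef and in neither library of the other. They were found by joining the peaks of the 4 high methylated libraries that shared 1 bp or more. A region with a peak in both HTE (high methylated DNA from tender beef) libraries and in no HTO (high methylated DNA from tough beef) library was called tender-specific, and the reverse was called tough-specific. There were 610 tender-specific regions, 3.61% of the 16879, and 283 tough-specific regions, 1.68% of them. The presence of peaks in the high libraries chose these regions, so everything said of the high libraries is a description of the choice, without a test. What the choice did not use is how the same regions behaved in the medium and low methylated DNA.

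MBD-seq (methyl-CpG binding domain sequencing) uses a protein that holds DNA by its methylated CpG sites. A fragment with many methylated CpGs binds tightly and a fragment with few binds loosely, so stepping up the salt releases captured DNA in fractions that differ in the density of methylated CpGs. In muscle, as in other tissues, most CpGs outside CpG islands are methylated, and DNA methylation is best known for its link to silent promoters, repeats and imprinted loci. A peak in such data marks a place where captured fragments pile up above their surroundings, and neighbouring fractions often hold the same place because the elution is gradual.

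The animals were Angus steers of about 12 months of age on one diet, and the DNA came from the longissimus muscle (longissimus dorsi in the labels, longissimus lumborum in the study's methods). Of these, 2 tender and 2 tough animals, taken from those with the lowest and the highest shear force, were captured once each and eluted at 3 salt levels, which gave 12 libraries. Beside HTE and HTO these are MTE and MTO, the medium methylated DNA of tender and of tough beef, and LTE and LTO, the low methylated DNA. Per the study, crude fat also set tender apart from tough animals, so shear force and fat cannot be told apart here. Its methods tie the low salt buffer to the highly methylated DNA and its supplement ties the high salt buffer to it, so eluates are named here by methylation level alone.

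After removal of duplicates, 3677473 to 4843388 tags were left in a high library, 5969045 to 6886676 in a medium library and 5770411 to 7981292 in a low library. Both tender libraries were deeper than both tough libraries in the high eluate, with 4526538 and 4843388 tags in HTE against 3677473 and 3721723 in HTO. The tender-specific subset was the larger by 610 to 283. With the same number of peaks taken from each high library the counts were 420 and 368. On chromosomes 1 to 29 the medium libraries of tender beef held more peaks than those of tough beef and the low libraries fewer. A library with more peaks can overlap more regions of any kind, and this runs through all shares below. The medium and low libraries come from the same 4 animals as the high ones, so they are further fractions of the same captures and not new animals.

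In their own libraries, most group-specific regions were modest peaks. The pileup, the number of tags stacked at a peak's summit, ran in the tender-specific regions from 6 to 240 in HTE_1 with a median of 11, and from 6 to 267 in HTE_2 with a median of 14. In the tough-specific regions it ran from 4 to 235 in HTO_1 with a median of 8, and from 4 to 210 in HTO_2 with a median of 9. Divided by depth the subsets were closer, with medians of 2.43 and 2.89 per 1000000 tags in the tender-specific and 2.18 and 2.42 in the tough-specific regions. The fold enrichment, the pileup against the local background of the same library, had medians of 6.46 and 6.59 in HTE and 6.22 and 6.20 in HTO. The median width was 260 bp in the tender-specific and 280 bp in the tough-specific subset. It was 275 bp in the 1570 regions with a peak in 1 tender and 1 tough high library, which have the same number of high peaks. The 7213 regions called in all 4 high libraries had a median of 387 bp, and the 5136 called in only 1 had 205 bp. A region spans all its joined peaks, so its width can grow with the number of libraries called. Only 9 of the 610 and 5 of the 283 reached 500 bp.

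Split at a fold enrichment of 3, a value chosen after the data were seen, the members fell into a modest and a tall sort. Taking the lower value of a region's own 2 libraries, 489 tender-specific regions (80.2%) had a fold enrichment of 3 or more and a median pileup of 10. The other 121 (19.8%) had a fold enrichment below 3, with a median of 1.92, and pileups of 39 to 240 with a median of 160. Among the tough-specific regions, 253 had a fold enrichment of 3 or more with a median pileup of 7, and 30 (10.6%) a lower one, with pileups of 56 to 210 and a median of 125. The regions below 3, called the tall sort here, held the highest stacks with the least rise over their surroundings. The pileups of the 2 sorts overlapped, as regions of 3 or more reached 124 in the tender-specific and 70 in the tough-specific subset. A small rise passes the q-value only where many tags stack. Low fold enrichment together with high pileup thus follows in part from the peak calling. Such regions were also common among those called in all 4 high libraries, where 33.1% had a fold enrichment below 3 in at least 1 library. With at most 1 tag kept per position and strand, a pileup cannot pass 2 times the fragment length, a limit of 358 in HTE_1, 392 in HTE_2 and 406 in both HTO libraries, and the highest pileups of these libraries were 355, 386, 405 and 403. The tallest member reached 240 in HTE_1 and 267 in HTE_2, below these limits, and the part of the limit in peaks missing from the other kind of beef was not tested.

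**Figure D1:**
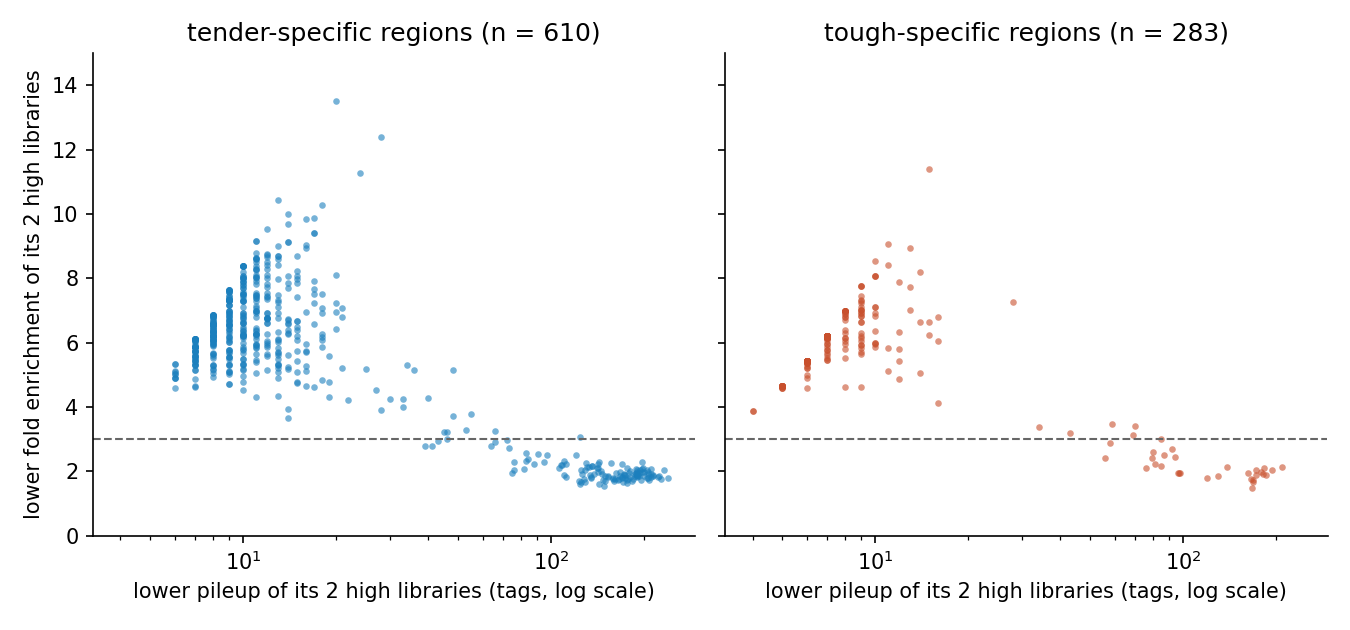
Lower pileup of a region's own 2 high libraries (tags, log axis) against its lower fold enrichment, one point per region, for 610 tender-specific and 283 tough-specific regions. The dashed line marks a fold enrichment of 3, below which lie 121 tender-specific and 30 tough-specific regions, all with pileups of 39 or more. Regions at or above the line reach 124 (tender-specific) and 70 (tough-specific). A small rise passes the q-value only where many tags stack.

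The tall sort sat close to peaks of the other kind of beef. The nearest HTO peak was within 1000 bp of 89 of the 121 tall tender-specific regions (73.6%), at a median of 450 bp, and no such region was farther than 6380 bp from one. The nearest HTE peak was within 1000 bp of 20 of the 30 tall tough-specific regions (66.7%), at a median of 718.5 bp. The regions with a fold enrichment of 3 or more lay apart, at a median of 17006 bp in the tender-specific and 44609 bp in the tough-specific subset, and 12.5% and 7.91% of them were within 1000 bp. Of all 283 tough-specific regions, 98 (34.6%) were more than 100 kb from any HTE peak, and of the 610 tender-specific regions 85 (13.9%) were that far from any HTO peak. HTO held fewer tags, and the part of depth in these distances was not tested.

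**Figure D2:**
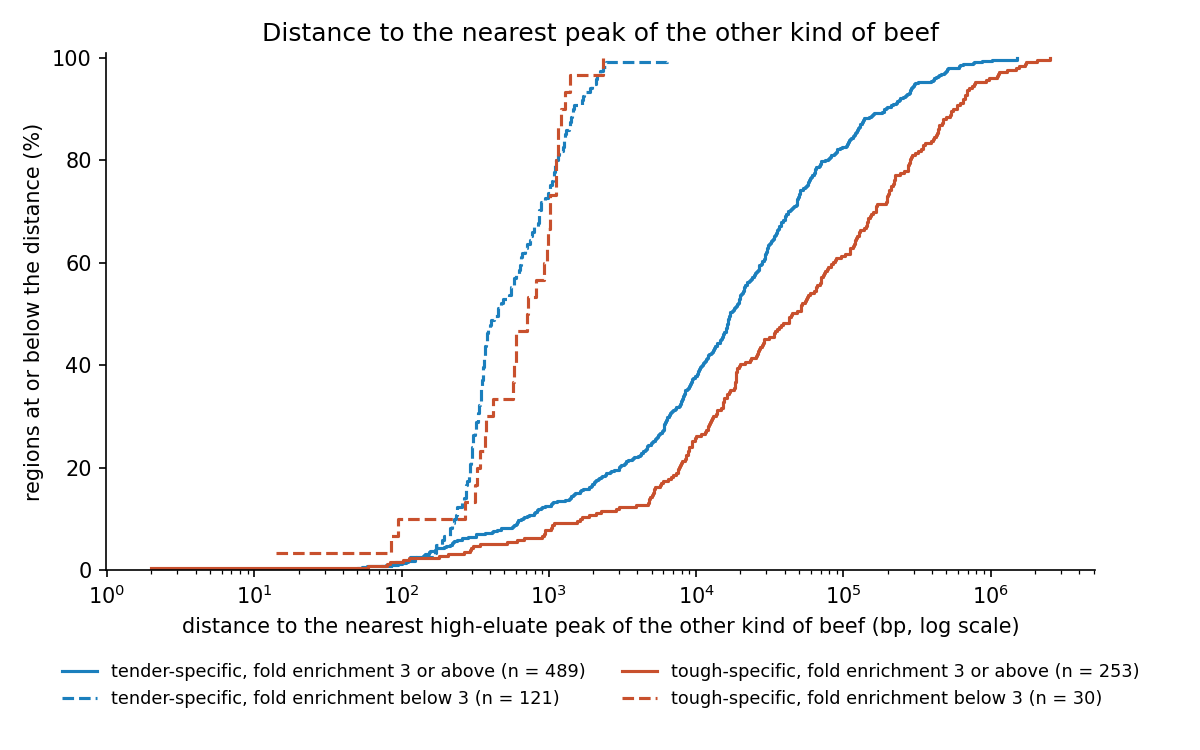
Share of regions (%) whose nearest high-eluate peak of the other kind of beef is at or below a distance in bp (log axis), by subset and by fold enrichment. The dashed lines (fold enrichment below 3, 121 and 30 regions) reach 100% below 10000 bp, and the solid lines (489 and 253 regions) extend past 100 kb.

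The tallest tender-specific regions belonged to this sort. At chr29:19410530-19410735 (bosTau8) the pileup was 240 in HTE_1 and 267 in HTE_2 with no peak in HTO, and the medium values were 247 and 233 in MTE and 273 and 281 in MTO. The region at chr6:45747020-45747222 had 233 and 247 in HTE, 182 and 174 in MTE, and 238 and 239 in MTO. At chr29:19442745-19442966 the values were 225 and 263 in HTE, 234 and 228 in MTE, and 253 and 282 in MTO. In these 3 the medium eluate held peaks of both kinds of beef, and the pileup there was higher in MTO than in MTE. The third by height, chr29:19407521-19407758, had 228 and 255 in HTE and 236 and 223 in MTE and no peak in a single MTO library. The tallest tough-specific region, chr8:56760735-56760942, had 235 in HTO_1 and 210 in HTO_2, and in the medium eluate 167 and 167 in MTE and 223 and 223 in MTO. The 3 tender-specific regions called in MTO and this one had a high-eluate peak of the other kind of beef 298 to 596 bp away.

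The rule's threshold is the authors' q-value of 0.01, a −log10 q of 2. Just inside it on the tender side was chr19:61680179-61680718, with −log10 q of 6.31 in HTE_1 and 3.09 in HTE_2. Just outside was chr23:6613642-6614555, with 4.99 and 11.6 in HTE, which was left out by 1 peak of −log10 q 3.11 in HTO_1. On the tough side chr18:1800109-1800562 was just inside, with 2.10 in HTO_1 and 9.50 in HTO_2, and chr24:61044714-61045079 just outside, with 5.82 and 4.65 in HTO and a peak of 2.35 in HTE_1. A single peak of the other kind of beef kept out 1325 regions on the tender and 742 on the tough side, more than the members themselves on either side.

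The authors also called peaks on the merged reads of both replicates, which lets a weak signal in the other kind of beef show. Of the 610 tender-specific regions, 372 (61.0%, Wilson 95% interval 57.1 to 64.8%) overlapped a peak of the merged HTO list, and 237 were in the merged HTE list alone. Of the 283 tough-specific regions, 216 (76.3%, 71.0 to 80.9%) overlapped a peak of the merged HTE list, and 67 were in the merged HTO list alone. Most regions that were group-specific by single libraries were thus called in both kinds of beef at the depth of the merged lists. These shares were still below those of other regions. The merged HTO list held 85.4% of all high-eluate and 96.1% of the mixed regions, and the merged HTE list 91.7 and 98.0%. Where both merged lists had a peak, the pileup per 1000000 tags was a median of 1.29 times higher in HTE for the tender-specific regions (above 1 in 284 of 372) and 1.79 times higher in HTO for the tough-specific ones (above 1 in 215 of 215). By fold enrichment the median ratios were nearly equal, 1.36 and 1.37, so the contrast between the subsets depended on the measure. The merged lists hold the same reads as the single ones, so these ratios describe the choice and are no further evidence for it. The intervals here and below cover counting error only.

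The medium eluate gave the first readout that the rule had not used. Nearly all members were seen there, 581 of 610 tender-specific regions (95.2%) and 266 of 283 tough-specific regions (94.0%) having a peak in at least 1 of the 4 medium libraries, against 94.8% of all 16879 regions of the high eluate. A peak in all 4 was found in 320 tender-specific (52.5%, Wilson interval 48.5 to 56.4%) and 148 tough-specific regions (52.3%, 46.5 to 58.0%). Among the 1570 mixed regions, those with a peak in 1 tender and 1 tough high library and so with the same number of high peaks, 871 (55.5%, 53.0 to 57.9%) were in all 4. Over all regions of the high eluate the share was 65.3%, above both subsets.

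The shares in single medium libraries were ordered by kind of beef. The tender-specific regions had a peak in 78.9% of cases in MTE_1, 84.6% in MTE_2, 72.6% in MTO_1 and 71.6% in MTO_2, so both tender libraries were above both tough ones. The means were 81.7% ± 4.06 in MTE and 72.1% ± 0.70 in MTO (SD, n = 2), 9.59 percentage points higher in tender beef (two-sided exact permutation test, p = 0.333). The tough-specific regions had a peak in 70.7% of cases in MTE_1, 74.2% in MTE_2, 78.4% in MTO_1 and 81.3% in MTO_2, so the order of the 2 kinds of beef was the opposite. All high-eluate regions had a peak in 83.2% ± 2.37 of cases in MTE and 80.8% ± 0.13 in MTO (SD, n = 2), and the mixed regions in 79.9 and 77.5%, both also higher in tender beef. The means of the tough-specific regions were 72.4% ± 2.50 in MTE and 79.9% ± 2.00 in MTO (SD, n = 2), a difference of -7.42 points (exact permutation test, p = 0.333). With 2 animals against 2 no test of this kind can go below 0.333, and after Benjamini-Hochberg adjustment over 9 tests the value was 0.375, so no difference here passed a threshold of 0.05. The difference in the tough-specific regions changed sign when HTO replicate 1 or HTO replicate 2 was left out of the rule, to 5.13 and 0.464 points. When every library of an eluate was reduced to an equal number of peaks, the difference in the tender-specific regions turned to -4.76 points.

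**Figure D3:**
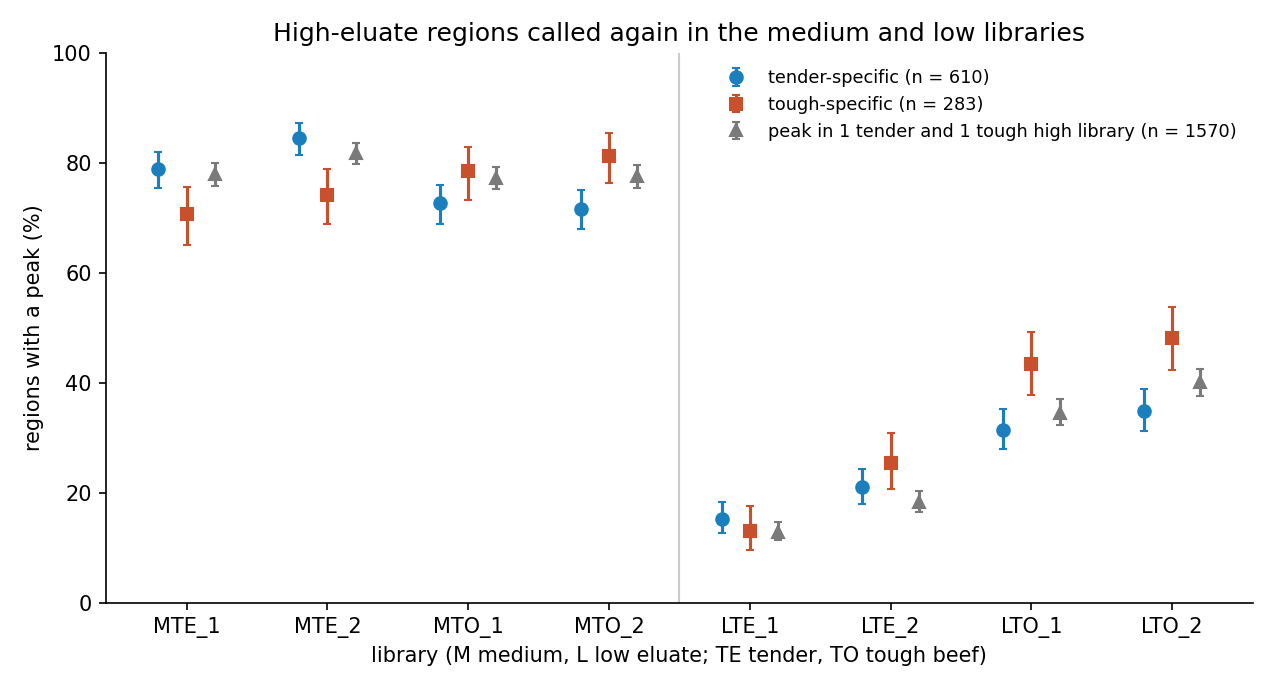
Share of regions (%) with a peak in each of the 4 medium and 4 low libraries, for tender-specific (n = 610), tough-specific (n = 283) and mixed (n = 1570) regions, with Wilson 95% intervals as bars. In MTE the tender-specific points lie above the tough-specific ones, in MTO below, and in LTO the tough-specific points are the highest, at 43.5 and 48.1%.

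To set the number of peaks of a library aside, both subsets were compared within each library, as the share of tender-specific minus the share of tough-specific regions with a peak. This gap was 8.18 points in MTE_1 and 10.4 in MTE_2, and -5.82 in MTO_1 and -9.63 in MTO_2. Each tender animal thus held more of the tender-specific and each tough animal more of the tough-specific regions in its medium eluate. The tender and tough means differed by 17.0 points (9.28 ± 1.56 against -7.73 ± 2.69, SD, n = 2, exact permutation test, p = 0.333, the smallest possible). The value was 17.5 with equal numbers of peaks and 16.1 with only the members of fold enrichment of 3 or more, a choice made after the values were seen. It fell to 0.952 when HTO replicate 1 and to 3.82 when HTO replicate 2 was left out, where 1 tough library alone has to mark a region and 1822 and 1077 regions then count as tough-specific.

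Whole regions rarely changed hands cleanly. In the medium eluate 31 of the 610 tender-specific regions (5.08%) were called in both MTE and neither MTO library, against 2.51% of all high-eluate regions and 2.36% of the mixed regions, and 7 (1.15%) had the opposite state, against 1.93% of all regions. Of the 283 tough-specific regions, 29 (10.2%) were called in both MTO and neither MTE library, against 1.93% of all and 2.04% of the mixed regions, and 5 (1.77%) the opposite way, against 2.51% of all regions. These shares moved with the libraries used, and shares over all regions were not computed for the settings that follow. With equal numbers of peaks the shares of the members were 2.86% in the tender-specific and 14.4% in the tough-specific subset. Without HTO replicate 1 they were 3.52 and 4.28%, without HTO replicate 2 3.35 and 5.94%, and in the tough-specific subset 7.05 and 6.13% without HTE replicate 1 or 2. With a medium library left out, when fewer libraries have to fit the state, the tender-specific share was 8.69% without MTE replicate 1, 13.1% without MTO replicate 1 and 11.3% without MTO replicate 2, and the tough-specific share was 15.5% without MTE replicate 2.

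**Figure D4:**
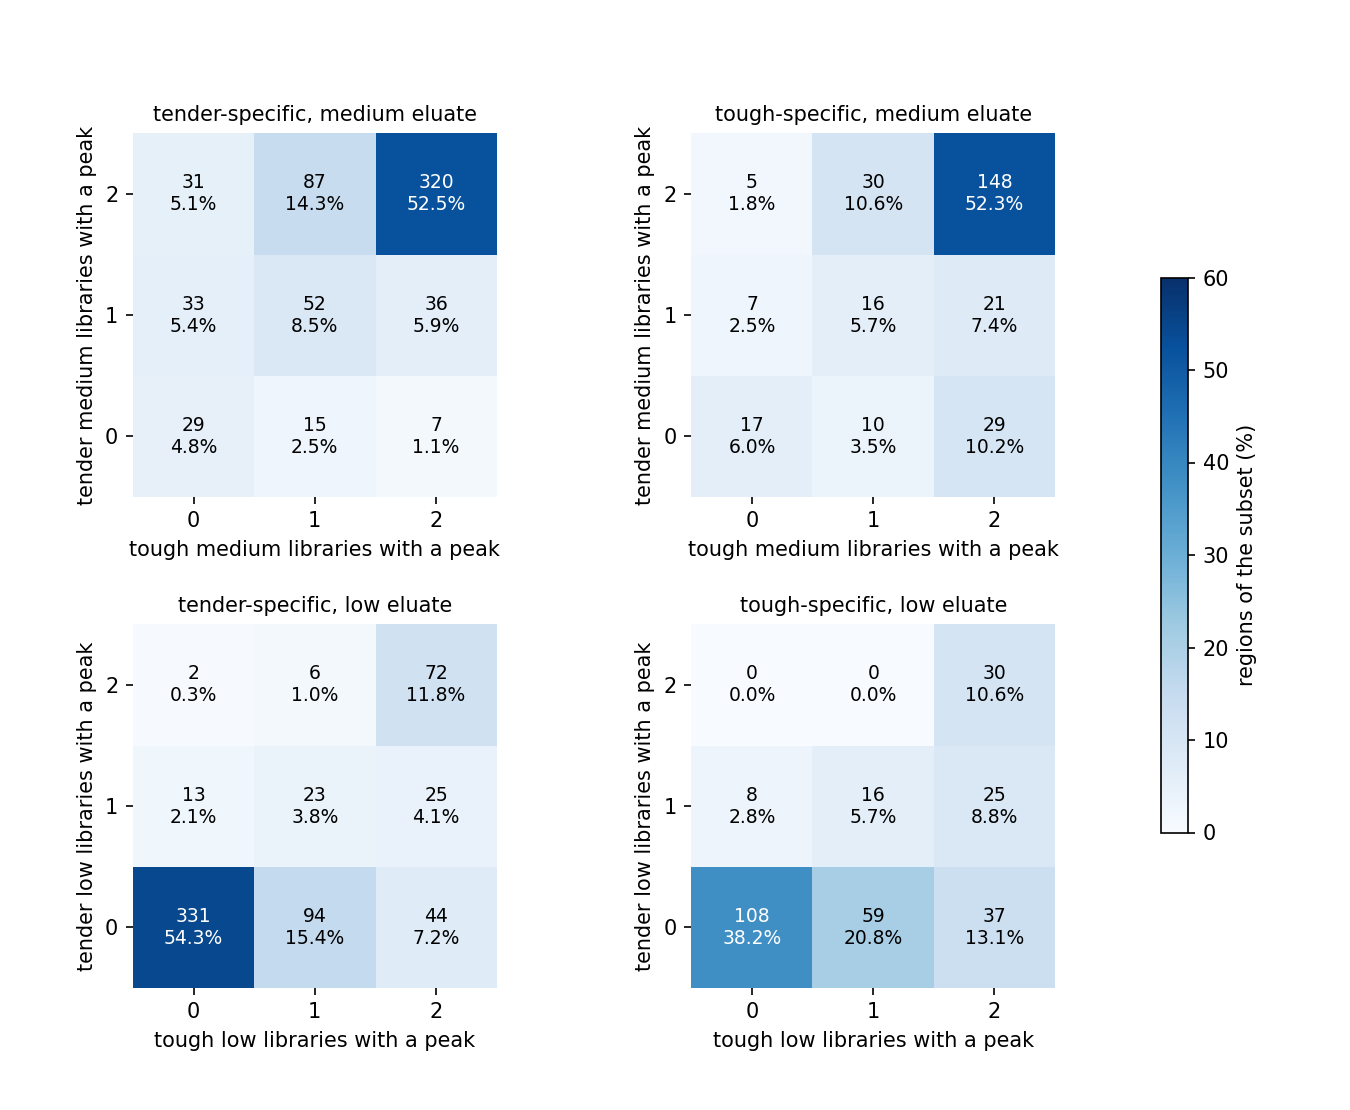
Number and share of regions by how many tender (rows) and tough (columns) libraries of the medium (top) and low (bottom) eluate held a peak, for 610 tender-specific (left) and 283 tough-specific (right) regions. The upper right cell of the medium panels, a peak in all 4 libraries, holds 320 and 148 regions, and the lower left cell of the low panels, no peak, 331 and 108.

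Regions listed in all 4 medium libraries can also be compared by height without presence deciding the outcome. The 320 tender-specific ones had a median pileup per 1000000 tags of 2.88 in MTE_1, 2.76 in MTE_2, 2.66 in MTO_1 and 2.68 in MTO_2. The library medians were 0.08 higher in tender beef on the log2 scale (1.06-fold, exact permutation test, p = 0.333), but the median of the differences region by region was -0.10, so the 2 summaries point in opposite directions. The 148 tough-specific ones had medians of 1.97 and 2.18 in MTE and 2.00 and 2.35 in MTO, a log2 difference of -0.06 (0.958-fold, exact permutation test, p = 0.667), and -0.07 region by region. Over all 11025 regions listed in all 4 medium libraries the region by region median was -0.21, and over the 871 mixed ones 0.0058. Both MTE values lay above both MTO values in 75 of the 320 tender-specific regions (23.4%), against 14.0% of all 11025, and both MTO values above in 122 (38.1%), against 48.9%. In the tough-specific regions these counts were 23 (15.5%) and 33 (22.3%) of 148. Of the 871 mixed regions, 182 (20.9%) had both MTE values above and 204 (23.4%) both MTO values above. The sign in the tough-specific regions turned under several settings, among them unscaled pileup (0.11) and fold enrichment (0.08). In height, then, the members called everywhere in the medium eluate gave no direction that both summaries and all settings shared.

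The tall sort and the modest sort were both seen again in the medium eluate, but not alike. The tall tender-specific regions had a peak in 88.4 and 92.6% of cases in MTE and in 91.7 and 86.0% in MTO, with no order between the kinds of beef. The modest ones had 76.5 and 82.6% in MTE and 67.9 and 68.1% in MTO, both tender libraries above both tough ones. The tall tough-specific regions, 30 in number, had 50 and 60% in MTE against 90 and 83.3% in MTO, and the modest ones 73.1 and 75.9% against 77.1 and 81.0%.

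The low methylated eluate held far fewer of the members. Of the tender-specific regions 279 (45.7%, 41.8 to 49.7%) and of the tough-specific regions 175 (61.8%, 56.1 to 67.3%) had a peak in at least 1 low library, against 62.3% of all high-eluate regions and 52.1% of the mixed ones. The tender-specific regions had a peak in 15.2% of cases in LTE_1, 21.0% in LTE_2, 31.5% in LTO_1 and 34.9% in LTO_2. The tough-specific regions had one in 13.1, 25.4, 43.5 and 48.1% of cases. Both subsets were therefore found more often in tough than in tender beef, with tender minus tough differences of -15.1 and -26.5 points in the means (18.1% ± 4.06 against 33.2% ± 2.43, and 19.3% ± 8.75 against 45.8% ± 3.25, SD, n = 2, exact permutation test, p = 0.333 for each). The mixed regions went the same way, with 15.6% ± 3.78 in LTE and 37.3% ± 3.87 in LTO. The numbers of peaks moved with this, with 9555 peaks in LTE_1, 16881 in LTE_2, 27783 in LTO_1 and 28599 in LTO_2. With equal numbers of peaks the differences shrank to -0.119 and -3.40 points.

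Within each low library the gap between the subsets was 2.17 points in LTE_1, -4.46 in LTE_2, -12.0 in LTO_1 and -13.1 in LTO_2. Only LTE_1 leaned towards the tender-specific regions, and both tough libraries leaned more strongly to the tough-specific ones than either tender library did. The means differed by 11.4 points (-1.14 ± 4.69 against -12.6 ± 0.81, SD, n = 2, exact permutation test, p = 0.333), and by 3.28 with equal numbers of peaks. Without HTO replicate 2 the difference was 3.81 points and without HTO replicate 1 it was 7.55. Taken per animal as the mean of its medium and low library, the gap was 5.18 and 2.96 points in the tender animals and -8.90 and -11.4 in the tough animals, a difference of 14.2 points (exact permutation test over 4 animals, p = 0.333), which was 4.25 without HTO replicate 1 and 3.82 without HTO replicate 2. Libraries of different eluates with the same beef and number were taken as 1 animal, which the labels do not state. The differences between replicates 1 and 2 in the medium eluate had a correlation of -0.04 with those in the low eluate in tender and 0.0045 in tough beef over the 893 regions, so the peaks give this link no support.

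Clean cases in the low eluate fell almost wholly on one side. Both LTO and neither LTE library held a peak in 37 of the 283 tough-specific regions (13.1%), against 8.97% of all and 9.43% of the mixed regions. With equal numbers of peaks this share was 1.36%. With a low library left out, fewer libraries have to fit the state. The share was then 20.8% without LTE replicate 2, 25.4% without LTO replicate 1 and 21.6% without LTO replicate 2. Shares over all regions were not computed with equal numbers of peaks or a library left out, so 8.97 and 9.43% are no measure for these values. With all low libraries, 44 of the 610 tender-specific regions (7.21%) had a peak in both LTO and neither LTE library. This is the opposite of their direction in the high eluate. Both LTE and neither LTO library held a peak in 2 tender-specific regions (0.328%, and 1.80% without LTE replicate 1) and in 0 tough-specific regions, which allows a share of up to 1.06% there, against 0.118% of all regions.

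Across both further eluates, 28 tender-specific (4.59%) and 15 tough-specific regions (5.30%) had no medium or low peak at all. This share was 4.75% of all high-eluate regions and 4.84% of the mixed ones. A peak in all 8 libraries was found in 59 tender-specific (9.67%) and 25 tough-specific regions (8.83%). For this the shares were 22.9% of all high-eluate regions and 6.75% of the mixed ones. A medium but no low peak was the most common outcome in the tender-specific subset (303 regions, 49.7%), against 33.0% of all high-eluate and 43.1% of the mixed regions. In the tough-specific one it was a peak in both eluates (173 regions, 61.1%), against 61.8% of all and 52.0% of the mixed regions. A low peak without a medium one was found in 1 tender-specific (0.164%) and 2 tough-specific regions (0.707%). For this the shares were 0.462% of all high-eluate and 0.127% of the mixed regions. Of the regions in all 8 libraries, chr2:136711289-136711539 had a pileup of 92 in HTO_1 and 119 in HTO_2. Its medium values were 196 and 112 for tender and 247 and 269 for tough beef, and its low values 57 and 110 for tender and 169 and 144 for tough beef. Although tough-specific by the rule, it lay 94 bp from an HTE peak and was in the merged HTE list with a pileup of 114, against 370 in the merged HTO list. At chr7:56599200-56599405, tender-specific by the rule, the pileup was 187 and 194 in HTE, and the medium values were 266 and 265 for tender and 241 and 238 for tough beef. Its low values were 269 and 272 for tender and 281 and 274 for tough beef, and it was in neither merged high list.

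There were 2 tough-specific regions with a peak in all 6 tough and none of the 6 tender libraries, and no tender-specific region had the mirror pattern. By the rule, no other of the 16879 high-eluate regions can have either pattern. Of all high-eluate regions 0.118% were called in both LTE and neither LTO library, as the mirror pattern needs, and 8.97% the other way. The part of this difference in the 2 patterns was not tested. The first of the 2 tough-specific regions, chr6:108235774-108236758, was at 985 bp also the widest of the 283. Its pileup was 16 in HTO_1 and 25 in HTO_2, 41 and 40 in MTO, and 30 and 50 in LTO, with no peak in HTE, MTE or LTE and none in their merged lists. Its fold enrichment was between 6.79 and 8.70 in the 6 libraries, so it belongs to the modest sort with a clear rise over its surroundings. The second, chr26:45750974-45751408, was a smaller peak of 435 bp. Its pileup was 8 in both HTO libraries, 9 in both MTO libraries, and 15 and 19 in LTO, with a fold enrichment of 5.43 to 7.55. It too was absent from every tender list, and the nearest HTE peak was 48538 bp away, against 2085 bp for the first. By the rule each had to be absent from HTE, and the medium and low lists were not part of that choice. They were picked out from 893 regions for this pattern after the values were seen, and the pattern has no test.

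A stricter reading of the lists, made after the values were seen, kept few regions. Of the tender-specific regions 238 were absent from the merged HTO list, 14 of these were called in both MTE and neither MTO library, and 5 of those were also absent from the merged MTO list. Of the tough-specific regions 67, 10 and 6 passed the same steps against tender beef. The second step kept 5.88% of the 238 and 14.9% of the 67. Without the merged-list step, 2.51% of all high-eluate regions were called in both MTE and neither MTO library, and 1.93% the other way. Shares over all regions were not computed for the other steps. The 5 tender-specific ones were all modest peaks. At chr16:70906233-70906442 the pileup was 11 and 16 in HTE and 16 and 16 in MTE, and at chr13:6253963-6254195 it was 11 and 15 in HTE and 10 and 18 in MTE. At chr22:60598453-60598699 it was 11 and 18 in HTE and 13 and 17 in MTE, and at chr28:13190315-13190553 it was 16 and 11 in HTE and 13 and 8 in MTE. None of these 4 had a peak in any low library. The last, chr3:15410917-15411158, had 9 and 9 in HTE and 17 and 19 in MTE, but also a peak of 9 in LTO_2.

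The 6 tough-specific regions included the 2 found in every tough library. Of the others, chr10:26056280-26056635 had a pileup of 9 and 11 in HTO and 15 and 12 in MTO, and the nearest HTE peak was 773841 bp away. At chr3:57390434-57390730 the values were 12 and 7 in HTO and 8 and 11 in MTO, with the nearest HTE peak 2068002 bp away. The region chr5:100863950-100864165 had 16 and 12 in HTO and 13 and 16 in MTO. The only tall one, chr28:11368555-11368933, had 184 and 167 in HTO and 198 and 198 in MTO, at a fold enrichment of 1.50 to 1.66 and 1119 bp from an HTE peak. None of these 4 had a low peak in a single library. At pileups near 10 a few tags decide whether a peak is called, and a peak missing from a list says that none was called and not that the DNA was unmethylated.

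The regions with the highest medium pileup among those that kept their direction there were, by contrast, mostly of the tall sort. The highest of the tender-specific ones was chr29:19407521-19407758, already described, which the merged MTO list held at 297. The region chr1:145385272-145385493 had 160 and 150 in HTE and 238 and 220 in MTE and no peak in MTO, yet in the low eluate it was called in all 4 libraries, at 252 and 260 in LTE and 268 and 246 in LTO. At chr14:2298463-2298682 the values were 33 and 33 in HTE, 50 and 40 in MTE, and in the low eluate 72 and 87 for tender and 63 and 60 for tough beef, at a fold enrichment of 4.24 or more. The merged HTO list held this last region at 42 and the merged MTO list at 49. Among the tough-specific ones, chr7:110036984-110037193 had 213 and 186 in HTO and 215 and 210 in MTO, while the merged HTE list held it at 266. In each of these 4 regions a merged list thus held a peak of the kind of beef in which the single libraries had none.

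By single libraries, some regions had the opposite state in the medium eluate. In the first 4 given here the merged medium lists held a peak of both kinds of beef, and in others they did not. The tender-specific region chr16:63175035-63175300 had a pileup of 196 and 199 in HTE and among the single medium libraries had a peak only in MTO, at 187 and 197, while the merged MTE list held it at 195 and the merged HTO list at 232. At chr29:45038747-45039033, a modest peak, the values were 8 and 13 in HTE, 15 and 11 in MTO, and 11 and 8 in LTO, with no MTE or LTE peak in a single library but a pileup of 13 in the merged MTE and 10 in the merged LTE list. The tough-specific region chr14:73731763-73732007 had 6 and 6 in HTO and 11 and 14 in MTE, no peak in a single MTO library but 15 in the merged MTO list, and 12 and 12 in LTE against 23 and 20 in LTO. At chr14:60477754-60478006 it was 6 and 6 in HTO and 11 and 12 in MTE, with no peak in a single MTO or low library but 11 in the merged MTO, 9 in the merged LTE and 11 in the merged LTO list. The tender-specific region chr28:39313631-39313892 was in the merged MTO list at 223 and not in the merged MTE list. Likewise, the tough-specific region chr9:103791057-103791358 was in the merged MTE list at 22 and not in the merged MTO list.

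The members were spread over all 29 chromosomes. There were 8 to 35 tender-specific regions per chromosome and 4 to 17 tough-specific ones, and tender-specific regions were the more numerous on 27 chromosomes, the exceptions being chromosome 10 (14 against 15) and chromosome 12 (8 against 9). As a share of the high-eluate regions of a chromosome, the tender-specific ones ranged from 1.74% on chromosome 12 to 5.19% on chromosome 17. The tough-specific ones ranged from 5 of 588 regions on chromosome 19 to 15 of 435 on chromosome 10. Chromosome 6 had the most tender-specific regions, 35, of which 15 were of the tall sort, and 6 tough-specific ones. Per Mb, tender-specific regions were densest on chromosome 25 (0.676) and tough-specific ones on chromosome 27 (0.220), the 2 chromosomes that also had the most high-eluate regions per Mb, 16.5 and 17.0. This did not hold for the other subset on each of them. Tender-specific regions had 0.353 per Mb on chromosome 27, below 0.466 on chromosome 29. Tough-specific ones had 0.163 per Mb on chromosome 25, below 0.214 on chromosome 29.

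**Figure D5:**
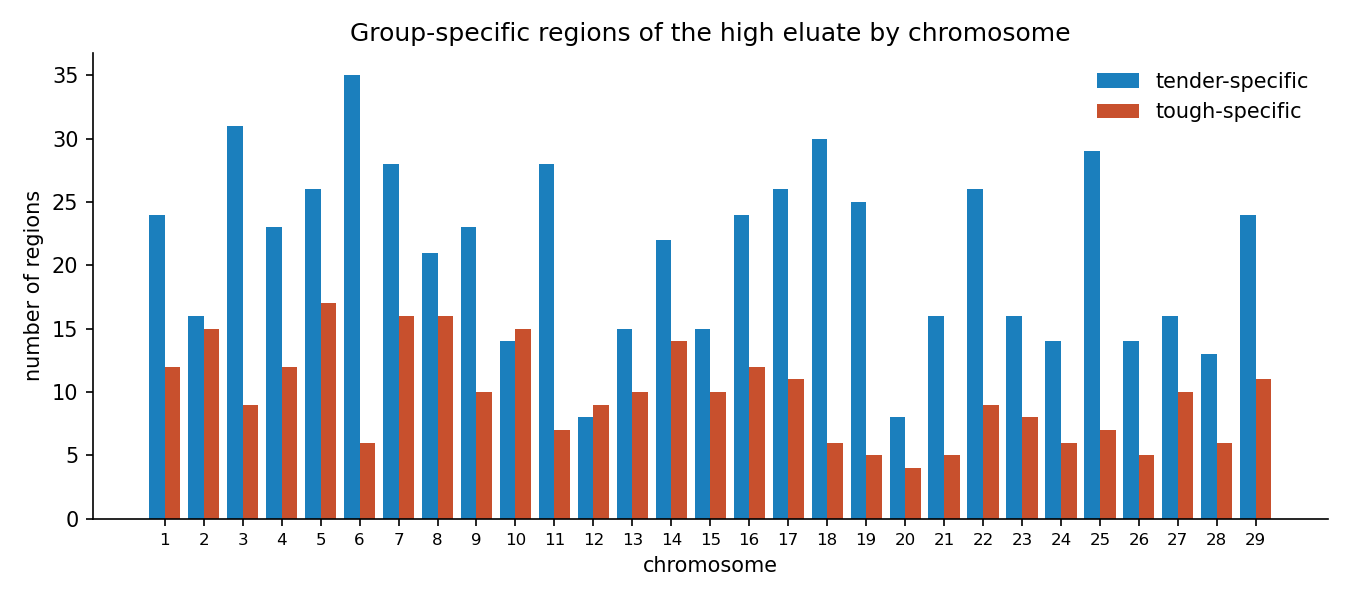
Number of tender-specific and tough-specific regions on each of chromosomes 1 to 29. The tender-specific bar is the higher on every chromosome except 10 and 12, and the highest bars are the 35 tender-specific regions of chromosome 6 and the 17 tough-specific ones of chromosome 5.

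The 1 Mb window with the most tender-specific regions was on chromosome 17, with 9 from 73071123 to 74071122. They lay among 70 high-eluate regions and beside 2 tough-specific ones. All 9 had a fold enrichment of 3 or more, and 2 were in all 4 medium libraries. For tough-specific regions this window was on chromosome 27, with 4 from 28477449 to 29477448. They lay among 254 high-eluate regions and beside 2 tender-specific ones. All 4 were of the tall sort, and 3 were in all 4 medium libraries. Over all 16879 high-eluate regions 3.61% were tender-specific and 1.68% tough-specific. The 4 of 254 on chromosome 27 were near this tough-specific share. The 9 of 70 on chromosome 17 were above the tender-specific one, in a window picked for holding the most. Genes, CpG density and sequence at these positions were not analysed here.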

How the data were processed

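MBD-seq peak lists of 12 libraries and 6 merged conditions were used. The submitters' processing notes name bosTau8, BWA 0.7.7 and MACS2. Per the methods, reads were cleaned with SOAPnuke and uniquely mapped reads kept. Per the file headers, peaks were called at a q-value of 0.01 without an input library. At most 1 tag was kept per position, and the local background spanned 10000 bp. For each peak the authors deposited a pileup (signal as tags at the summit, unscaled), a fold enrichment (ratio of pileup to local background) and p-values and q-values as −log10. Merged and single lists came from different MACS2 versions and effective genome sizes.

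From these, regions were joined and compared with scipy 1.17.1, pandas 2.3.3 and numpy 2.4.6 under Python 3.11.15. The p-values of merged lists were not used. Where several peaks of a list fell in a region the highest value was taken. Pileup was divided by the tags left after duplicate removal (3677473 to 7981292 per library). Shares have Wilson 95% intervals, and for a share of 0 the limit is 3 counts. Tender and tough beef were compared over libraries or animals in 9 exact permutation tests, all two-sided. Joined regions were checked against bedtools 2.31.1 (all 16879 equal), and in data simulated from HTE_1 peaks 200 of 200 planted tender-specific and 200 of 200 planted tough-specific regions were recovered. The members, lists and tests were chosen with earlier results of these data known. Regions named were, per subset, the tallest in their own libraries, those with the same and the opposite state in the medium eluate, those in all 8 further libraries, those nearest the threshold, the widest, and the densest chromosome and window. The ones of the stricter reading, and those in every tough library, were picked after their values were seen.

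Alternatives were −log10 q of at least 3 and 5, fold enrichment of at least 3, overlap of 50%, joining over 500 bp, equal numbers of peaks, chromosome X, merged lists, each library left out, the replicate block, the log2 ratio of shares, unscaled pileup and fold enrichment. Added after the values were seen were only members of fold enrichment of at least 3, only those with no peak of the other kind of beef within 1000 bp, and only those absent from its merged list. Genes and sequences of the regions were not analysed here.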

Additional observations from a re-analysis of the deposited data

Results flagged for a closer look

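In the medium eluate the gap between the subsets, the share of tender-specific minus that of tough-specific regions with a peak, was above 0 in both tender libraries (8.18 and 10.4 points) and below 0 in both tough libraries (-5.82 and -9.63 points). The kinds of beef thus lay on opposite sides of 0, 17.0 points apart, and the exact permutation test gave p = 0.333, the smallest that 2 animals against 2 allow. The medium libraries are fractions of the same captures as the high libraries that chose the regions.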

How the results depend on the processing

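The 3 gaps between the subsets and the low-eluate share differences kept their direction under every alternative run on them, which the merged lists were not. The pileup ratio of the tender-specific regions, taken as library medians, did so too, whereas its median region by region had the opposite sign (-0.10). The merged lists gave 6160 tender-specific and 2380 tough-specific regions, and members absent from the other merged list numbered 238 and 67. Of these, 14 tender-specific (5.88%) and 10 tough-specific ones (14.9%) were called only in the same kind of beef in the medium eluate. Equal numbers of peaks per library turned the medium share difference of the tender-specific regions to -4.76 points, moved the share called only in the same kind of beef to 2.86% (tender-specific) and 14.4% (tough-specific) in the medium eluate, and to 1.36% (tough-specific) in the low eluate. In the low eluate the share of tender-specific regions called only in tender beef was 0% with peaks up to 500 bp apart joined, and 0% with members near a peak of the other kind left out. The log2 pileup ratio of the tough-specific regions was 0.0767 with −log10 q of at least 5, 0.12 with equal numbers of peaks, 0.11 unscaled and 0.0779 with fold enrichment. The cause was not tested.

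With 1 library left out, there were 1052 to 2528 tender-specific and 511 to 1822 tough-specific regions, by a rule that then needs fewer libraries. The medium share difference ran from 4.29 to 12.5 points (tender-specific) and from -9.19 to 5.13 (tough-specific), the medium gap from 0.952 to 18.9, the low gap from 3.81 to 14.7 and the log2 pileup ratio of the tough-specific regions from -0.13 to 0.0623. The share called only in the same kind of beef ran from 3.35 to 13.1% and from 4.28 to 15.5% in the medium eluate, and from 0.119 to 1.80% and from 9.84 to 25.4% in the low eluate (tender-specific and tough-specific). With the replicate block the medium gap was again 17.0 points, with p = 0.5 by exact permutation within pairs, the smallest that 2 pairs allow. Numbers name different animals in tender and tough beef, and same-numbered libraries did not deviate together (correlation 0.01 over 893 regions in the medium and 0.0023 in the low eluate). At 3677473 to 4843388 tags per high library, members near a pileup of 10 are at the limit of what is called.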

Other observations

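On chromosome X, which the rule leaves out, 21 of 540 high-eluate regions were called in both HTE and neither HTO library and 7 in both HTO and neither HTE library.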
